A study of Mus musculus with 3 samples.

Results

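The 43 genes described here encode the enzymes of serine synthesis, of the folate and methionine cycles that carry one-carbon units, of purine and pyrimidine synthesis and salvage, and of deoxynucleotide supply. They were chosen by gene symbol, and all 43 were found among the 24421 symbols of the deposited tables. Of these, 41 had an RPKM of 1 or higher in some library and were compared, and the other 2 were listed at 0 throughout. RPKM is the number of reads per kilobase of gene model, scaled to library size, so levels of different genes can be set beside each other.

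RNA came from granulocyte progenitors, the bone marrow cells committed to making neutrophils, in 3 groups of female mice with 1 library each. The 4T1-TB library came from mice carrying orthotopic implants of 4T1, a mouse mammary carcinoma line, on an F1 semi-syngeneic H-2b/d background. The IRF8-deficient library came from C57BL/6 (H-2b) mice with a genetic deficiency of IRF8, a transcription factor of myeloid cells, whose allele the labels leave unnamed. The control library, NTB, came from non-tumor-bearing mice of the same F1 background as 4T1-TB. Genotype and strain therefore cannot be told apart in any comparison with the IRF8-deficient library. The age of the mice, the number of mice behind a library and the surface markers of the sort are likewise unstated there. With 1 library per group no difference has a replicate check and none was tested. Intervals given with ratios are 95% counting intervals from recovered reads. They cover neither animals nor library preparation, nor, between libraries, the choice of scaling.

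Cells make serine from a glycolytic intermediate and pass its side-chain carbon to folate, and the loaded folates feed purine rings, thymidylate and the methionine cycle. De novo synthesis builds purines on an activated ribose phosphate and builds pyrimidines before attaching them to it, whereas salvage enzymes recycle free bases and nucleosides. Ribonucleotide reductase then turns ribonucleotides into deoxynucleotides for DNA, and proliferating marrow progenitors are heavy users of all of these routes.

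Recovered reads per library numbered 23019139 in 4T1-TB, 32345586 in IRF8-deficient and 43655873 in NTB, without the ribosomal RNA precursor gene Rn45s, and each compared member held 263 to 16313 reads in a library. Rn45s was listed at an RPKM of 11417 in 4T1-TB, 32498 in IRF8-deficient and 2903 in NTB. The 20 highest genes of each library held 18.9% of its summed RPKM in 4T1-TB, 39.8% in IRF8-deficient and 16.7% in NTB. Irf8 itself stood at 8.60 RPKM in 4T1-TB, 13.7 in IRF8-deficient and 43.8 in NTB, which was 3.18-fold (95% counting interval 3.00 to 3.39) lower in IRF8-deficient than in NTB and 5.09-fold (95% counting interval 4.69 to 5.52) lower in 4T1-TB than in NTB. Reads over part of a disrupted gene can still be counted, and which exons they came from is not in the deposited values. All 10 granulocyte progenitor markers were detected in each library, with a summed RPKM of 19935 in 4T1-TB, 10193 in IRF8-deficient and 16968 in NTB. In IRF8-deficient 8 of them lay below NTB and 2 above, among the latter Cebpe at 255 RPKM against 77.4 in NTB. The 11 late neutrophil granule genes summed to 14124 in 4T1-TB, 139655 in IRF8-deficient and 10030.4 in NTB. In IRF8-deficient 11 of 11 were at least 2-fold higher than in NTB, against 8.78% of all compared genes. In 4T1-TB 5 of 11 were, against 1.67% of all compared genes. Of the 11 genes 3 lay below NTB in 4T1-TB. They were Ltf (65.0 RPKM in 4T1-TB against 75.2 in NTB), Camp (340 against 546) and Ngp (424 against 632). Monocyte and macrophage markers summed to 133 in 4T1-TB, 259 in IRF8-deficient and 265 in NTB, stem and early progenitor markers to 13.1 in 4T1-TB, 7.69 in IRF8-deficient and 41.8 in NTB, and dendritic cell markers to 21.6 in 4T1-TB, 13.9 in IRF8-deficient and 19.1 in NTB. Much of the monocyte sum was F13a1, at 89.8 RPKM in 4T1-TB, 163 in IRF8-deficient and 151 in NTB. Most of the dendritic cell sum was Bst2, at 20.4 RPKM in 4T1-TB, 12.6 in IRF8-deficient and 17.7 in NTB. Of the 8 compared monocyte and macrophage markers 5 lay below NTB and 3 above in IRF8-deficient. In 4T1-TB 8 of 8 lay below NTB. Of these, 5 (62.5%) were at least 2-fold lower, against 1.35% of all compared genes. T and NK cell markers summed to 435 in 4T1-TB, 153 in IRF8-deficient and 421 in NTB, nearly all of it Nkg7 with Cd3e listed at 0. B cell markers summed to 12.6 in 4T1-TB, 11.7 in IRF8-deficient and 16.9 in NTB, and basophil, mast cell and eosinophil markers to 35.9 in 4T1-TB, 21.6 in IRF8-deficient and 36.5 in NTB. The B cell sum was mostly Cd79b, at 12.3 RPKM in 4T1-TB, 10.3 in IRF8-deficient and 16.4 in NTB. Megakaryocyte markers summed to 1.63 in 4T1-TB, 3.58 in IRF8-deficient and 1.75 in NTB and erythroid markers to 0.168 in 4T1-TB, 0.126 in IRF8-deficient and 1.61 in NTB. Mammary epithelial genes summed to 2.09 in 4T1-TB, 0.254 in IRF8-deficient and 6.15 in NTB, with Krt14 and Krt19 listed at 0 in all 3 libraries and Epcam at 0 in 4T1-TB. Their sum was mostly Krt18, at 2.03 RPKM in 4T1-TB, 0.219 in IRF8-deficient and 5.93 in NTB.

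In these libraries the synthetic enzymes were expressed at substantial levels. Among the 41 compared members the median RPKM was 44.9 in 4T1-TB, 26.5 in IRF8-deficient and 39.0 in NTB. Rrm2, the S-phase subunit of ribonucleotide reductase, was the highest member in 4T1-TB and IRF8-deficient, at 174 and 156 RPKM, and Impdh2, which commits inosine monophosphate (IMP) to guanine nucleotides, was the highest in NTB, at 166. Dhodh, the mitochondrial enzyme of pyrimidine synthesis, was the lowest compared member in IRF8-deficient, at 4.58 RPKM. Rrm2b, the alternative small subunit of the reductase, was the lowest in 4T1-TB and NTB, at 2.62 and 2.85 RPKM.

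**Figure D1:**
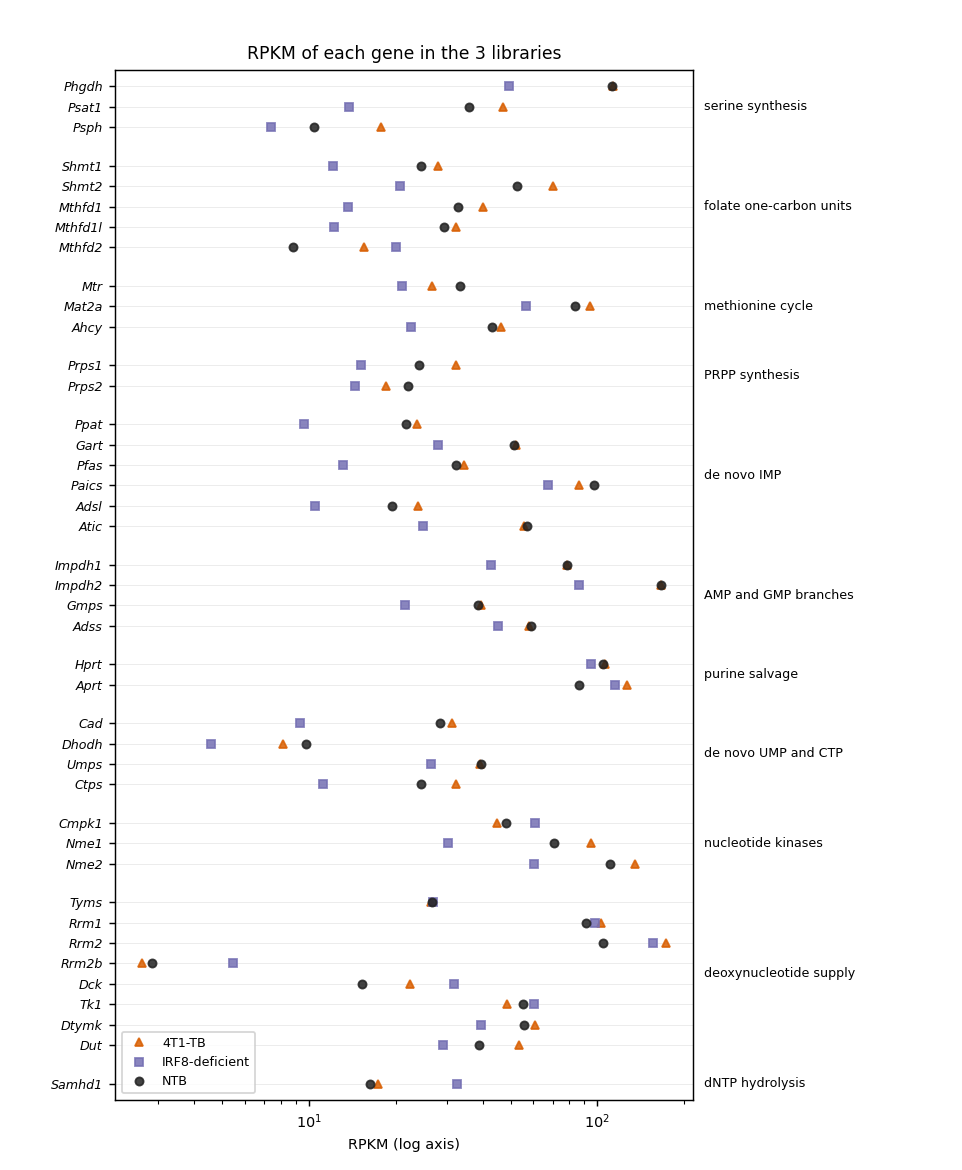
RPKM of the 41 compared genes on a log axis, 1 row per gene grouped by pathway branch, with 1 point per library (triangle 4T1-TB, square IRF8-deficient, circle NTB) and no error bars because each group has 1 library. In the upper branches the IRF8-deficient square lies left of the other 2 points for nearly every gene, with Mthfd2 as an exception at 20 RPKM against 8.77 in NTB. Among the genes of deoxynucleotide supply the square lies left of both other points for Dut and Dtymk only.

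The IRF8-deficient library was set against NTB to ask which genes go with IRF8 deficiency. Differences are given throughout in log2(RPKM + 1). A gene was called when its difference was at least 1 in size, that is 2-fold on this scale. In IRF8-deficient progenitors 11 of the 41 members (26.8%) were called lower and 2 (4.88%) called higher than in NTB. Over all 10658 compared genes 5.73% were called lower (611 genes), 8.78% higher (936 genes) and 14.5% in either direction. The members' median difference was −0.64 and that of all compared genes −0.02. This split moved with the library scaling. With a scaling that left out the 20 genes of highest mean RPKM over the 3 libraries, 895 genes were lower and 706 higher. With scaling to summed reads 1203 were lower and 565 higher. The same 11 members were called lower under each of these scalings, among 19 and 20 members in all, whereas neither of the 2 higher members passed 2-fold there.

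Of the 11 lower members 10 belong to the routes that build new molecules. Serine synthesis, folate one-carbon units, the methionine cycle, activated ribose, purine synthesis and pyrimidine synthesis make up 7 branches with 27 compared members. Of the 27, 26 stood below NTB in the IRF8-deficient library, 10 of them called. The 27 had a median difference of −0.91. Their grouping was made with the values known. The 8 members of deoxynucleotide supply instead had a median of 0.12, with 6 above NTB, 1 of them past 2-fold, and 2 below. RNA in bulk samples does not separate fewer cells of a type from less RNA per cell, and these cannot be told apart here. The late neutrophil granule genes above moved with the same contrast, and their part in it was not tested.

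**Figure D2:**
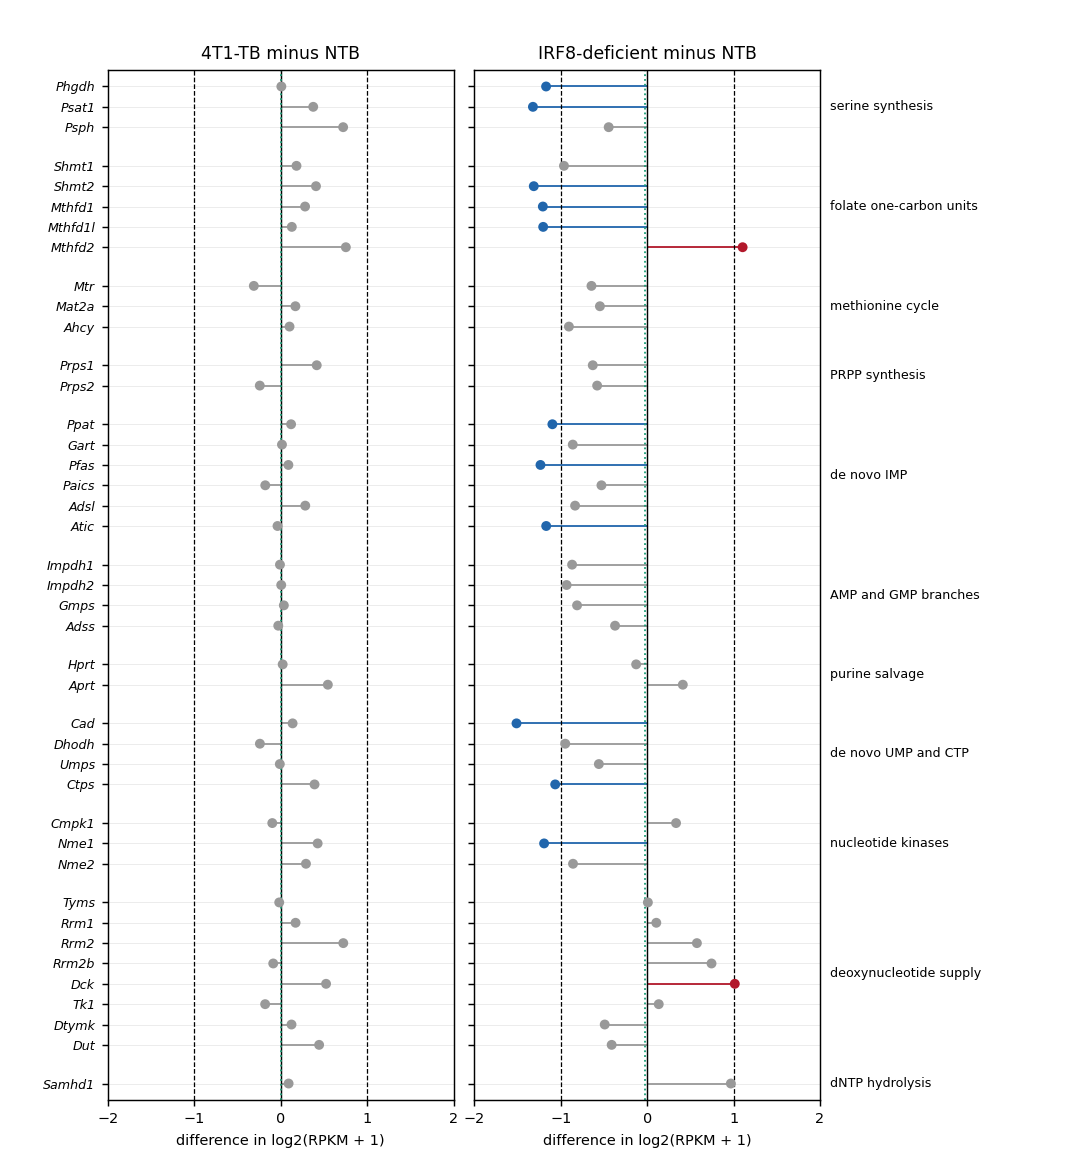
Differences in log2(RPKM + 1) for the 41 compared genes, 4T1-TB minus NTB on the left and IRF8-deficient minus NTB on the right, with dashed lines at the 2-fold call, a dotted line at the median of all compared genes, and coloured points for called genes (blue lower, red higher). No gene passes the call on the left, and 11 lower and 2 higher genes pass it on the right.

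Serine synthesis runs through 3 enzymes, all lower in the IRF8-deficient library. Phgdh (phosphoglycerate dehydrogenase, the entry enzyme; chr3:98313170-98339990 in mm10, minus strand) stood at 49.5 RPKM in IRF8-deficient against 113 in NTB, 2.28-fold (95% counting interval 2.18 to 2.38) lower. Its level lay above 86.3% of compared genes in IRF8-deficient and above 95.6% in NTB, so it remained a well expressed gene in both. Psat1, the phosphoserine aminotransferase, stood at 13.8 RPKM in IRF8-deficient against 35.9 in NTB, 2.61-fold (2.43 to 2.81) lower. Psph, the phosphatase that releases serine, had the smallest difference of the 3, at 7.35 RPKM in IRF8-deficient against 10.4 in NTB or −0.45 in log2(RPKM + 1). Of its exon bases 26.1% are shared with Cct6a on the opposite strand, and reads from both cannot be told apart because the labels do not state whether counting used strand. Opposite-strand overlaps of 17.0% of exon bases or less touch Gart, Shmt1, Shmt2, Mthfd1, Mat2a, Impdh2, Umps, Tk1, Rrm2b, Ppat and Paics.

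Folate enzymes showed the same pattern with 1 exception. Shmt2, which moves the carbon of serine onto folate in mitochondria, stood at 20.6 RPKM in IRF8-deficient against 52.7 in NTB, 2.56-fold (2.40 to 2.72) lower. Its cytosolic counterpart Shmt1 stood at 12.1 RPKM in IRF8-deficient against 24.5 in NTB. That is 2.03-fold (1.86 to 2.22) lower in RPKM but a difference of −0.96, just short of the call. Mthfd1, the cytosolic enzyme that interconverts loaded folates, was 2.41-fold (2.26 to 2.57) lower, at 13.6 RPKM in IRF8-deficient against 32.8 in NTB. Mthfd1l, which releases formate inside mitochondria, was 2.41-fold (2.27 to 2.56) lower, at 12.2 RPKM in IRF8-deficient against 29.5 in NTB. Between Shmt2 and Mthfd1l in the same mitochondrial route acts Mthfd2, the dehydrogenase and cyclohydrolase (chr6:83305691-83325908, minus strand), and it went the other way. It stood at 20 RPKM in IRF8-deficient against 8.77 in NTB, 2.28-fold (95% counting interval 2.08 to 2.50) higher. Its difference, 1.10 as deposited, was between 0.78 and 1.15 under the other library scalings, so its direction did not depend on them. Aldh1l2, a mitochondrial formyl-folate dehydrogenase, and Gldc, the decarboxylase of the glycine cleavage system, were listed at 0 in all 3 libraries.

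In the methionine cycle, which turns one-carbon units into the methyl donor S-adenosylmethionine, no gene was called and all 3 were lower in IRF8-deficient than in NTB. Ahcy, which clears S-adenosylhomocysteine, stood at 22.5 RPKM in IRF8-deficient against 43.1 in NTB, a difference of −0.91. Mtr, methionine synthase, differed by −0.64 at 21.1 RPKM in IRF8-deficient against 33.5 in NTB, and Mat2a, the S-adenosylmethionine synthase subunit, by −0.55 at 56.7 RPKM in IRF8-deficient against 83.4 in NTB. Both synthases of the activated ribose phosphate had differences of like size, with Prps1 at 15.2 RPKM in IRF8-deficient against 24.0 in NTB and Prps2 at 14.4 RPKM in IRF8-deficient against 22.0 in NTB, differences of −0.63 and −0.58.

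All 6 enzymes that build IMP were lower in the IRF8-deficient library, 3 of them past 2-fold. Ppat, the amidotransferase that commits ribose phosphate to purines, stood at 9.63 RPKM in IRF8-deficient against 21.7 in NTB, 2.26-fold (2.11 to 2.42) lower. Pfas, which adds a glutamine nitrogen to the growing ring, was 2.46-fold (2.34 to 2.57) lower, at 13.1 RPKM in IRF8-deficient against 32.3 in NTB, and Atic, which closes the ring with a folate-borne carbon, 2.30-fold (2.18 to 2.43) lower, at 24.8 RPKM in IRF8-deficient against 56.9 in NTB. Gart, the other folate-using enzyme of the route, stood at 27.9 RPKM in IRF8-deficient against 51.5 in NTB, and Adsl, a lyase used in both IMP and AMP synthesis, at 10.5 RPKM in IRF8-deficient against 19.4 in NTB, differences of −0.86 and −0.83. Paics, which carries out the carboxylation and the next step, differed least, by −0.53, at 67.4 RPKM in IRF8-deficient against 97.7 in NTB.

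Promoter sequence was examined because the members of several branches were lower together, and because Mthfd2 was not. RefSeq sequence (GRCm38.p6, the mm10 assembly) of the 250 bases before the gene start was at hand for 39 of the 43 members, all but Aldh1l2, Dhodh, Pfas and Rrm2b. The 4 promoters printed here, 5′ to 3′ on the gene's strand, are those of the entry enzyme of serine synthesis, of the folate enzyme that went the other way, and of the divergent neighbours Ppat and Paics, of which 1 was called lower and 1 was not. Capitals mark matches to the E-box CACGTG, to the CCAAT box, which reads ATTGG on the other strand, or to an E2F motif. The E2F motifs searched on both strands were TTGGCGC as such or within TTTGGCGC, then TTTCGCGC as well as the shorter TTCCCGC. Phgdh lies at chr3:98339970-98340219 and Mthfd2 at chr6:83317605-83317854, both on the minus strand, Ppat at chr5:76951579-76951828 on the minus strand and Paics at chr5:76951052-76951301 on the plus strand.
Phgdh: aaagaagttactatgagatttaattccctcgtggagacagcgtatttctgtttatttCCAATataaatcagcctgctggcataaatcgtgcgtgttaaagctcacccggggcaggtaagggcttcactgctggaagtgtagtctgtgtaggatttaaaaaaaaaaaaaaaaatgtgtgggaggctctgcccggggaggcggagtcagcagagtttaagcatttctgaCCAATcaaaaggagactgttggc
Mthfd2: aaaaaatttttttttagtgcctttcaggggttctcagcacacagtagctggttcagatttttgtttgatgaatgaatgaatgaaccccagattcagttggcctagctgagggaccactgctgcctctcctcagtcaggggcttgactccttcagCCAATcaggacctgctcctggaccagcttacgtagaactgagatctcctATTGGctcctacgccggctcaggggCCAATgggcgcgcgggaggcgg
Ppat: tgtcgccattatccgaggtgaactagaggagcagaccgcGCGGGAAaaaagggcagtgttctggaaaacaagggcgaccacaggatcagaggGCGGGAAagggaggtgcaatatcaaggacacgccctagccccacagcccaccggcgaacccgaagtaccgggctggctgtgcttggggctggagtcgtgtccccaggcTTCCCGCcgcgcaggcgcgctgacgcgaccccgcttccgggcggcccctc
Paics: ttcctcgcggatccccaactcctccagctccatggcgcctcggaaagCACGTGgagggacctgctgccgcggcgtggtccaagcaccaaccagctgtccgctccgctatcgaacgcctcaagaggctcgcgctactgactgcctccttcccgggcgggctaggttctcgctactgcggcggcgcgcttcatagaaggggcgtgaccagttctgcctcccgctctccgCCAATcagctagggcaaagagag

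Phgdh and Mthfd2 both hold CCAAT boxes, 2 in the window of Phgdh and 3 in that of Mthfd2, although they differed in opposite directions from NTB. The Ppat window holds 3 E2F matches and the Paics window 1 E-box and 1 CCAAT box. The annotated spans of Ppat and Paics overlap by 277 bases, and the Paics window falls inside Ppat. Exons of these neighbours share 272 bases on opposite strands, 6.83% of the exon bases of Ppat and 10.9% of those of Paics. Among the 39 members, 6 (15.4%) held the E-box, against 6.86% of 27025 RefSeq genes with the same window. An E2F motif was in 6 (15.4%), against 6.7% of all genes, and the CCAAT box in 17 (43.6%), against 37.5%. Neither TGATGCAA nor TGATGAAA, cores of the amino acid response element, was in any member's window, and 1.88% of all genes held one. Of the 10 lower members with a promoter entry, 2 held the E-box (Atic, Nme1), 2 an E2F motif (Mthfd1, Ppat) and 4 the CCAAT box. Of the 29 other members with an entry, 4 held the E-box, 4 an E2F motif and 13 the CCAAT box. These matches describe letters in a short window and say nothing of whether a factor binds there. In GENCODE M21 the annotated span of Mthfd2 begins further upstream than the RefSeq start used for its window.

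Past IMP the differences were smaller than 2-fold in all 4 members. Impdh1 stood at 42.6 RPKM in IRF8-deficient against 78.6 in NTB and Impdh2, the other isoenzyme, at 86.3 RPKM in IRF8-deficient against 166 in NTB, differences of −0.87 and −0.93. Gmps, which makes GMP, differed by −0.81 at 21.5 RPKM in IRF8-deficient against 38.5 in NTB. Adss, the entry to AMP, differed by −0.37 at 45.3 RPKM in IRF8-deficient against 59.0 in NTB. The salvage enzymes lay apart from the de novo genes. Hprt, which recovers hypoxanthine and guanine, stood at 95.3 RPKM in IRF8-deficient against 104 in NTB (difference −0.13). Aprt, which recovers adenine, stood at 115 RPKM in IRF8-deficient against 86.3 in NTB (difference 0.41, but 0.07 under the scaling to summed reads).

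Cad, which carries the opening steps of pyrimidine synthesis on 1 polypeptide (chr5:31054780-31078479, plus strand), had the largest lower difference of any member, −1.51. It stood at 9.29 RPKM in IRF8-deficient against 28.3 in NTB, 3.05-fold (95% counting interval 2.90 to 3.21) lower, and 1.12% of all compared genes had a still lower difference. Dhodh stood at 4.58 RPKM in IRF8-deficient against 9.76 in NTB, 2.13-fold (1.86 to 2.44) lower in RPKM but just short of the call at −0.95. Umps, which completes UMP, stood at 26.5 RPKM in IRF8-deficient against 39.6 in NTB, a difference of −0.56. Ctps, the CTP synthase, was 2.19-fold (2.02 to 2.37) lower, at 11.2 RPKM in IRF8-deficient against 24.5 in NTB.

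Among the kinases, Nme1, a nucleoside diphosphate kinase, was 2.33-fold (2.22 to 2.45) lower, at 30.3 RPKM in IRF8-deficient against 70.6 in NTB. Its neighbour Nme2, 2668 bases away, stood at 60.3 RPKM in IRF8-deficient against 110.2 in NTB, a difference of −0.86. A read-through transcript, Gm20390, shares 12.9% of the exon bases of Nme1 and 48.9% of those of Nme2 on the same strand, so how reads were divided between them is uncertain. Cmpk1, which phosphorylates UMP and CMP, was instead above NTB, at 60.9 RPKM in IRF8-deficient against 48.1 in NTB (difference 0.33), a direction that turned under the scaling to summed reads.

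The genes of deoxynucleotide supply lay on both sides of NTB. The large subunit of ribonucleotide reductase, Rrm1, stood at 98.1 RPKM in IRF8-deficient against 91.1 in NTB (difference 0.11), Tyms, thymidylate synthase, at 26.9 RPKM in IRF8-deficient against 26.7 in NTB (difference 0.01), and Tk1, cytosolic thymidine kinase, at 60.5 RPKM in IRF8-deficient against 55.0 in NTB (difference 0.13). The directions of these 3 changed with the scaling. Rrm2 was higher, at 156 RPKM in IRF8-deficient against 105 in NTB, 1.49-fold (1.45 to 1.54), and so was Rrm2b, at 5.45 RPKM in IRF8-deficient against 2.85 in NTB, 1.91-fold (1.71 to 2.14), although neither was called. Dck, the kinase that salvages deoxycytidine (chr5:88764996-88783281, plus strand), was called higher, at 31.7 RPKM in IRF8-deficient against 15.2 in NTB, 2.09-fold (1.97 to 2.21). Its difference ran from 0.68 to 1.06 over the scalings. Samhd1, which hydrolyses deoxynucleoside triphosphates and so works against the supply enzymes, stood at 32.7 RPKM in IRF8-deficient against 16.2 in NTB, 2.02-fold (1.92 to 2.12) higher in RPKM and 0.97 on the log2(RPKM + 1) scale, just under the call. Dtymk, thymidylate kinase, and Dut, which removes dUTP, were below NTB, at 39.4 RPKM in IRF8-deficient against 55.8 in NTB and at 29.1 RPKM in IRF8-deficient against 39.0 in NTB, differences of −0.49 and −0.41.

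**Figure D3:**
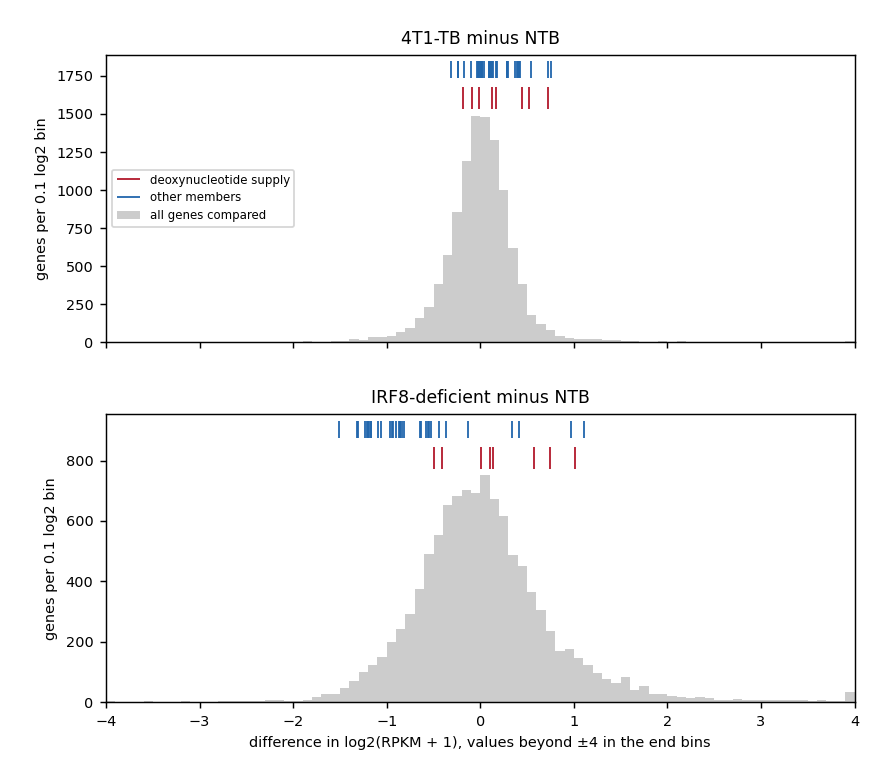
Distribution over all 10658 compared genes (grey bars, genes per 0.1 log2 bin) of the difference in log2(RPKM + 1) for 4T1-TB minus NTB (top) and IRF8-deficient minus NTB (bottom), with ticks for the 8 genes of deoxynucleotide supply (red) and the other 33 compared members (blue). In the lower panel most blue ticks lie left of 0, with a branch median of −1.17 for serine synthesis and −1.20 for folate enzymes, while the red ticks spread around their median of 0.12.

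Shares of the members' own total do not depend on how libraries are scaled against each other. The 7 synthetic branches held 56.3% in 4T1-TB, 44.7% in IRF8-deficient and 60.0% in NTB of the members' summed RPKM, which was 2325 in 4T1-TB, 1522 in IRF8-deficient and 2063 in NTB. Deoxynucleotide supply held 21.1% in 4T1-TB, 29.4% in IRF8-deficient and 18.9% in NTB. The first of these sums was 2.67 times the second in 4T1-TB, 1.52 times in IRF8-deficient and 3.17 times in NTB. Purine salvage held 9.99% in 4T1-TB, 13.8% in IRF8-deficient and 9.24% in NTB, and serine synthesis held 7.65% in 4T1-TB, 4.64% in IRF8-deficient and 7.70% in NTB. In each of these shares the IRF8-deficient library lay further from NTB than 4T1-TB did, and no library scaling can move them. The synthetic branches were grouped with the values known, so their share is a description and no independent check.

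**Figure D4:**
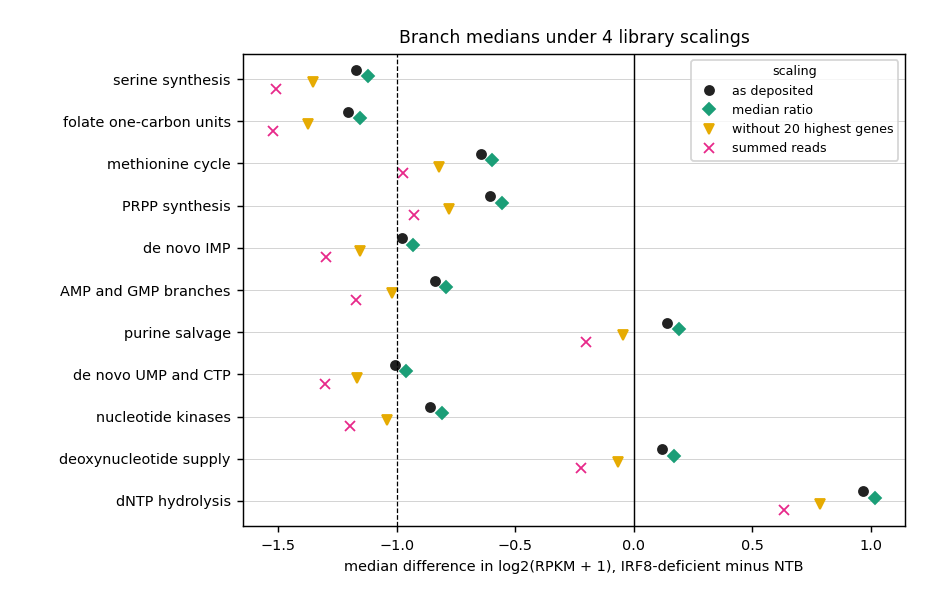
Median difference in log2(RPKM + 1), IRF8-deficient minus NTB, of each of the 11 branches under 4 library scalings (1 symbol each; the dashed line marks 2-fold lower). The medians of serine, folate, methionine, activated ribose (PRPP), purine and pyrimidine synthesis and of the kinases lie below 0 under each scaling, whereas those of purine salvage and deoxynucleotide supply lie above 0 under 2 scalings and below 0 under the other two.

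The 4T1-TB library was set against NTB to ask what tumor growth goes with on a shared background. None of the 41 members was called higher or lower in 4T1-TB progenitors, where 1.67% of all compared genes were called higher, 1.35% lower and 3.02% in either direction. Members' differences ran from −0.31 to 0.75 with a median of 0.12, against 0.01 for all compared genes. Of the 41, 29 lay above 0 and 12 below, but 13 of them changed direction with the library scaling. The 21 that lay above NTB under all 4 scalings included 5 with differences over 0.5, namely Mthfd2, Rrm2, Psph, Aprt and Dck.

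Mthfd2 stood at 15.5 RPKM in 4T1-TB against 8.77 in NTB, 1.76-fold (95% counting interval 1.59 to 1.95) higher and the largest difference of any member in this comparison. Among the 5 compared folate members it was also the only one above NTB in the IRF8-deficient library, a comparison that shares the NTB library. Rrm2 stood at 174 RPKM in 4T1-TB against 105 in NTB, 1.66-fold (1.61 to 1.71) higher. Psph stood at 17.8 RPKM in 4T1-TB against 10.4 in NTB, 1.71-fold (1.53 to 1.91) higher. Aprt stood at 126 RPKM in 4T1-TB against 86.3 in NTB and Dck at 22.3 RPKM in 4T1-TB against 15.2 in NTB, 1.46-fold (1.39 to 1.54) and 1.47-fold (1.37 to 1.57) higher. NTB was the lowest of the 3 libraries for 4 of these genes, and for Psph, which shares exon bases with Cct6a, IRF8-deficient was.

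Smaller differences of 4T1-TB from NTB joined enzymes of several branches. Dut (53.4 RPKM in 4T1-TB against 39.0 in NTB), Nme1 (95.3 RPKM in 4T1-TB against 70.6 in NTB), Prps1 (32.4 RPKM in 4T1-TB against 24.0 in NTB), Shmt2 (70.2 RPKM in 4T1-TB against 52.7 in NTB), Ctps (32.4 RPKM in 4T1-TB against 24.5 in NTB) and Psat1 (46.9 RPKM in 4T1-TB against 35.9 in NTB) differed by between 0.38 and 0.44. Mtr had the largest lower difference, −0.31, at 26.8 RPKM in 4T1-TB against 33.5 in NTB, followed by Dhodh (8.10 RPKM in 4T1-TB against 9.76 in NTB) and Prps2 (18.4 RPKM in 4T1-TB against 22.0 in NTB), each −0.24. Among enzymes called lower in IRF8-deficient, Mthfd1 (40.1 RPKM in 4T1-TB against 32.8 in NTB), Mthfd1l (32.3 RPKM in 4T1-TB against 29.5 in NTB), Cad (31.3 RPKM in 4T1-TB against 28.3 in NTB), Ppat (23.7 RPKM in 4T1-TB against 21.7 in NTB) and Pfas (34.4 RPKM in 4T1-TB against 32.3 in NTB) stood slightly above NTB in 4T1-TB, by 0.09 to 0.28. The same held for Nme2 (135 RPKM in 4T1-TB against 110.2 in NTB), Adsl (23.8 RPKM in 4T1-TB against 19.4 in NTB), Shmt1 (28.0 RPKM in 4T1-TB against 24.5 in NTB), Mat2a (93.9 RPKM in 4T1-TB against 83.4 in NTB), Rrm1 (103 RPKM in 4T1-TB against 91.1 in NTB), Dtymk (60.9 RPKM in 4T1-TB against 55.8 in NTB), Ahcy (46.3 RPKM in 4T1-TB against 43.1 in NTB) and Samhd1 (17.3 RPKM in 4T1-TB against 16.2 in NTB), by 0.09 to 0.29. Of these 13, Pfas, Ahcy and Samhd1 changed direction with the scaling. Paics (86.2 RPKM in 4T1-TB against 97.7 in NTB), Tk1 (48.5 RPKM in 4T1-TB against 55.0 in NTB), Cmpk1 (44.9 RPKM in 4T1-TB against 48.1 in NTB) and Rrm2b (2.62 RPKM in 4T1-TB against 2.85 in NTB) stood below NTB, by −0.18 to −0.09.

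Several central enzymes differed by less than 0.05 as deposited, among them Phgdh (113 RPKM in 4T1-TB against 113 in NTB), Impdh2 (166 RPKM in 4T1-TB against 166 in NTB), Gart (52.0 RPKM in 4T1-TB against 51.5 in NTB), Hprt (106 RPKM in 4T1-TB against 104 in NTB), Atic (55.4 RPKM in 4T1-TB against 56.9 in NTB) and Tyms (26.4 RPKM in 4T1-TB against 26.7 in NTB). Near NTB too were Impdh1 (78.1 RPKM in 4T1-TB against 78.6 in NTB), Gmps (39.5 RPKM in 4T1-TB against 38.5 in NTB), Adss (57.8 RPKM in 4T1-TB against 59.0 in NTB) and Umps (39.3 RPKM in 4T1-TB against 39.6 in NTB). With 1 library on each side, such near-equal values do not show that the groups are alike.

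Set against 4T1-TB, the IRF8-deficient library had 17 of the 41 members (41.5%) called lower and 0 called higher, with 7.07% and 8.83% of all compared genes called in those directions and 15.9% in either. The members' median difference was −0.86. Shmt2 (20.6 RPKM in IRF8-deficient against 70.2 in 4T1-TB), Psat1 (13.8 RPKM in IRF8-deficient against 46.9 in 4T1-TB), Cad (9.29 RPKM in IRF8-deficient against 31.3 in 4T1-TB) and Nme1 (30.3 RPKM in IRF8-deficient against 95.3 in 4T1-TB) differed most, by −1.72, −1.70, −1.65 and −1.62. Psph, Shmt1, Ahcy, Prps1, Adsl and Nme2 were called here and not against NTB, with differences of −1.17, −1.15, −1.01, −1.05, −1.12 and −1.15. The remaining 7 of the 17 were Phgdh, Mthfd1, Mthfd1l, Ppat, Pfas, Atic and Ctps. Rrm2b (5.45 RPKM in IRF8-deficient against 2.62 in 4T1-TB) and Samhd1 (32.7 RPKM in IRF8-deficient against 17.3 in 4T1-TB) had the largest differences above 0, 0.83 and 0.88.

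Ratios between enzymes of 1 step were taken within each library, with their 95% counting intervals in parentheses. Mthfd2 over Mthfd1, the mitochondrial over the cytosolic dehydrogenase, was 0.386 (0.355 to 0.419) in 4T1-TB, 1.47 (1.35 to 1.59) in IRF8-deficient and 0.267 (0.248 to 0.288) in NTB. The mitochondrial form thus had the lower RPKM of the pair in 4T1-TB and NTB and the higher one in IRF8-deficient. Shmt2 over Shmt1 was 2.51 (2.36 to 2.68) in 4T1-TB, 1.71 (1.55 to 1.88) in IRF8-deficient and 2.15 (2.05 to 2.26) in NTB, so in IRF8-deficient it lay below NTB where Mthfd2 over Mthfd1 lay above, while in 4T1-TB both ratios lay above NTB. Rrm2 over Rrm2b was 66.1 (58.5 to 75.0) in 4T1-TB, 28.7 (26.5 to 31.2) in IRF8-deficient and 36.7 (33.8 to 40.0) in NTB, highest in 4T1-TB. Prps2 over Prps1 was 0.568 (0.528 to 0.612) in 4T1-TB, 0.948 (0.867 to 1.04) in IRF8-deficient and 0.915 (0.866 to 0.965) in NTB, so 4T1-TB stood apart from the other two. Impdh2 over Impdh1 was 2.13 (2.05 to 2.21) in 4T1-TB, 2.03 (1.93 to 2.13) in IRF8-deficient and 2.11 (2.05 to 2.16) in NTB, with intervals that overlap among the 3 libraries. Nme1 over Nme2 was 0.705 (0.676 to 0.736) in 4T1-TB, 0.503 (0.471 to 0.536) in IRF8-deficient and 0.641 (0.619 to 0.663) in NTB, subject to the shared read-through transcript. A further 3 ratios were chosen after their values were seen. Mthfd2 over Shmt2, consecutive mitochondrial enzymes, was 0.220 (0.203 to 0.239) in 4T1-TB, 0.970 (0.893 to 1.05) in IRF8-deficient and 0.166 (0.154 to 0.179) in NTB. Tk1 over Dck, the thymidine and deoxycytidine kinases, was 2.17 (2.02 to 2.33) in 4T1-TB, 1.91 (1.80 to 2.02) in IRF8-deficient and 3.62 (3.42 to 3.82) in NTB. Paics over Ppat, early enzymes of the IMP route, was 3.64 (3.45 to 3.83) in 4T1-TB, 7.0 (6.53 to 7.50) in IRF8-deficient and 4.49 (4.33 to 4.66) in NTB.

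**Figure D5:**
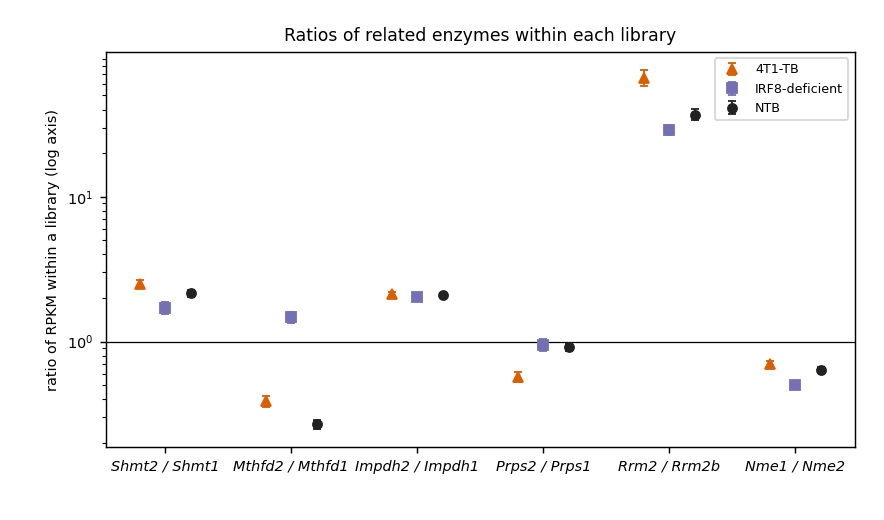
Ratios of RPKM between 6 pairs of related enzymes within each library, on a log axis (triangle 4T1-TB, square IRF8-deficient, circle NTB), with bars for 95% counting intervals, many of them smaller than the symbol. Mthfd2 over Mthfd1 lies above 1 only in the IRF8-deficient library, at 1.47, and Impdh2 over Impdh1 is nearly level across the 3 libraries.

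The rest of the pathway was read from 4 lists of 96 further genes, of which 70 were compared. In IRF8-deficient 10 of the 70 (14.3%) were called lower and 5 (7.14%) higher than in NTB, against 5.73% and 8.78% of all compared genes, with a median of −0.33. The share of higher calls was thus not above the background. Among 13 compared folate and one-carbon genes 3 were lower and none higher. Slc19a1, the reduced folate carrier, stood at 3.70 RPKM in IRF8-deficient against 12.9 in NTB. Fpgs, which retains folates in the cell by adding glutamates, stood at 3.28 RPKM in IRF8-deficient against 9.42 in NTB, and Gcsh, the carrier protein of glycine cleavage, at 5.73 RPKM in IRF8-deficient against 15.3 in NTB. Among 11 serine, glycine and methionine genes 2 were lower, Mtap, which salvages methylthioadenosine, at 2.96 RPKM in IRF8-deficient against 9.62 in NTB, and Ahcyl2, an Ahcy relative, at 1.71 RPKM in IRF8-deficient against 6.04 in NTB.

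Of 23 compared purine genes outside the members, 4 were called higher and 2 lower in IRF8-deficient. Xdh, xanthine dehydrogenase, which makes uric acid, stood at 79.9 RPKM in IRF8-deficient against 7.43 in NTB, and Ampd3, which deaminates AMP, at 23.6 RPKM in IRF8-deficient against 3.54 in NTB. Ada, adenosine deaminase, stood at 27.8 RPKM in IRF8-deficient against 12.1 in NTB, and Nt5e, the ectonucleotidase that releases adenosine, at 5.08 RPKM in IRF8-deficient against 0.225 in NTB. Nt5e reached an RPKM of 1 in IRF8-deficient only, so its place among the compared genes rests on the library where it was high. The 2 lower genes were Ak4, an adenylate kinase family member (2.03 RPKM in IRF8-deficient against 8.20 in NTB), and Gmpr, GMP reductase (4.76 RPKM in IRF8-deficient against 10.7 in NTB). Of 23 pyrimidine and deoxynucleotide genes 3 were lower and 1 higher. The lower ones were Nt5c3b, a nucleotidase, at 3.18 RPKM in IRF8-deficient against 7.67 in NTB, Dctd, dCMP deaminase, at 2.08 RPKM in IRF8-deficient against 6.97 in NTB, and Slc25a33, a mitochondrial pyrimidine nucleotide carrier, at 0.408 RPKM in IRF8-deficient against 2.34 in NTB. The higher one was Cmpk2, a mitochondrial nucleotide kinase known as interferon-inducible, at 24.5 RPKM in IRF8-deficient against 4.78 in NTB. In 4T1-TB 2 of the 70 (2.86%) were called higher than in NTB and none lower, against 1.67% and 1.35% of all compared genes. They were Ada (27.3 RPKM in 4T1-TB against 12.1 in NTB) and Upp1, uridine phosphorylase, at 1.79 in 4T1-TB and listed at 0 in NTB. Upp1 reached an RPKM of 1 in 4T1-TB only, so it was compared only through the library where it was high.

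Of 13 compared regulators 1 was called lower and 3 higher in IRF8-deficient against NTB, where 5.73% of all compared genes were lower and 8.78% higher. Myc, a factor known to drive nucleotide synthesis genes through E-boxes, was lower, at 76.6 RPKM in 4T1-TB, 25.7 in IRF8-deficient and 69.8 in NTB, 2.72-fold (2.58 to 2.87) below NTB. E2f2, a factor of S-phase genes, was higher, at 10.8 RPKM in 4T1-TB, 33.7 in IRF8-deficient and 5.16 in NTB, as were E2f7, a repressor of the same family, at 3.83 RPKM in 4T1-TB, 8.92 in IRF8-deficient and 3.62 in NTB, and Nfe2l2, the oxidative stress factor, at 42.6 RPKM in 4T1-TB, 85.7 in IRF8-deficient and 38.7 in NTB. E2f1 stood at 9.50 RPKM in 4T1-TB, 9.87 in IRF8-deficient and 9.77 in NTB, and E2f3 at 8.76 RPKM in 4T1-TB, 5.55 in IRF8-deficient and 8.77 in NTB. Atf4, which drives serine synthesis genes and Mthfd2 when amino acids are short, stood at 127 RPKM in 4T1-TB, 83.2 in IRF8-deficient and 92.6 in NTB, highest in 4T1-TB. In 4T1-TB none of the 13 was called.

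Cell cycle genes bear on enzymes that are used in S phase. None of 25 S-phase genes was called in IRF8-deficient against NTB, with 20 below NTB, 5 above and a median of −0.27. Of 20 G2 and M phase genes 2 (10%) were called higher, a share close to the 8.78% of all compared genes. All 20 nonetheless lay above NTB as deposited, with a median of 0.64. Over all 10658 compared genes 5162 lay above NTB and 5492 below. In 4T1-TB none of either list was called, with medians of 0.09 and 0.06. The part of cell cycle stage in the members' values was not tested.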

How the data were processed

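Each sample was assigned to its group by the mouse model in its labels. The values deposited by the authors are RPKM for 24421 symbols per library. Among tools the submitters' processing notes list TopHat2 2.0.13, HTSeq 0.6.1 and edgeR 3.12.1 (beside Picard 1.97, cutadapt 1.2.1 and CASAVA 1.8.2) and the build mm10, with no role for each. Not given in the sources used here were the annotation, the strandedness and the form of library size behind the RPKM. Per the labels' protocols, TRIzol was used for RNA and library preparation was the usual Illumina one.

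From these values differences in log2(RPKM + 1) were computed over the 10658 symbols with an RPKM of at least 1 in any library, with a gene called at a difference of 1. The pseudocount understates the differences of low genes. With 1 library per group no statistical test was made. RPKM of a gene in different libraries stand in ratios of whole numbers, and from these ratios whole reads were recovered for 15157 of 15158 genes above 0. Of 8806 checked implied gene lengths 90.8% were whole, and 87.3% of 14553 lay within 0.8 to 1.25 of the GENCODE M21 exon length, which was itself used to choose common factors. Reads served only for depth, for exact binomial (Clopper-Pearson) 95% intervals of ratios between libraries or genes, which cover counting error only, and for alternative scalings. Library sizes implied by the RPKM were 0.965 times the recovered reads in 4T1-TB, 0.807 times in IRF8-deficient and 1.03 times in NTB. The recovery and the calls were also run on simulated data. There the reference gene lengths were the true ones, so errors in common factors from inexact reference lengths were not tested.

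Every member was named, along with Irf8, the called genes of the other pathway lists (up to 6 per list and comparison), and Myc, Atf4, E2f1, E2f2, E2f3 and any other called regulator. Members and lists were chosen with earlier results of these data known. Alternatives were 3 library scalings, other pseudocounts, filters and calls. Computation used pandas 2.3.3 and scipy 1.17.1 (numpy 2.4.6) in Python 3.11.15, and figures used matplotlib 3.10.9.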

Additional observations from a re-analysis of the deposited data

How the results depend on the processing

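The direction of 37 of 41 members in IRF8-deficient against NTB was the same under the deposited scaling and the 3 others, 31 below and 6 above, and it turned for Cmpk1, Tyms, Rrm1 and Tk1. For IRF8-deficient against 4T1-TB it was the same for 40, with Tyms as the exception, and for 4T1-TB against NTB for 28. Scaling without the 20 genes of highest mean RPKM moved the median of all genes in IRF8-deficient against NTB to −0.19, and scaling to summed reads to −0.33. Members called in that comparison then numbered 19 and 20 lower and 0 and 0 higher, against 11 and 2 as deposited. With median ratio scaling the median of all genes there was 0.02, and 11 members were lower and 3 higher. At a 1.5-fold call 22 were lower and 4 higher, at 4-fold 0 and 0, and with a pseudocount of 5 no member was called higher. In IRF8-deficient against 4T1-TB, 2 members were called higher at 1.5-fold and 1 with a pseudocount of 0.1, and lower calls numbered 0 at 4-fold and 11 with a pseudocount of 5, against 17. In 4T1-TB against NTB 3 members were called higher at 1.5-fold. Fewer calls at a stricter fold or a larger pseudocount, and more at a looser fold, follow from their construction. Shares of all compared genes at these folds and pseudocounts were not computed, so the counts there have no background beside them. The remaining counts of calls under these settings, and those with no filter or a minimum RPKM of 5, stayed within 1.5 times the counts given. Across the comparisons and the other scalings, pseudocounts and filters, 249 member differences moved by at least the half-width of their counting interval. Another 612 moved by less. These include every difference under the filters, which leave a gene's values unchanged and so could not move it. No paired analysis was possible because each group has 1 library, and for the same reason no library could be left out. Each compared member rests on 263 or more reads in a library, and the spread between animals was not measured.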
